A study of Homo sapiens with 2 samples.

Results

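SOX9 peaks on chromosomes 4, 13 and 18 were taken as every row of the deposited SOX9 list that lies on these chromosomes. They numbered 559, of 7437 peaks on the 22 autosomes and 7547 in the whole list. Chromosome 4 held 287 of them, chromosome 13 held 160 and chromosome 18 held 112. The list came from 1 chromatin immunoprecipitation and sequencing (ChIP-seq) library of VCaP cells, precipitated with the Millipore antibody AB5535 against SOX9. VCaP is a long-established line from a human prostate cancer with the TMPRSS2-ERG gene fusion, and its basal SOX9 expression is known to be high; it was cultured in DMEM with serum, and the labels name no treatment. The other list, of 401 peaks, came from 1 library of VCaP input DNA, set aside after sonication without antibody. Peak names in the SOX9 list carry a replicate number of 2, and no other SOX9 library was analysed here. Positions are in hg18. Each peak has a score from the authors. Its scale is not stated, so it serves only to rank peaks within the list.

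SOX9 is a transcription factor that binds short DNA motifs through an HMG box and bends the bound DNA, and it occupies many enhancers far from promoters in the tissues where it acts. In the prostate it is known for its part in epithelial development and in tumours. Human chromosomes 4, 13 and 18 are known for few genes per unit length and for long gene deserts, and in many cell types they tend to lie toward the nuclear periphery. Chromosome 13 is acrocentric, with a short arm of repeats that the assembly does not cover.

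The label of these chromosomes as gene-poor was checked with the RefSeq gene table for GRCh38.p14, from which only the number of protein-coding genes per chromosome was used. The table lists 769 such genes on chromosome 4, 338 on chromosome 13 and 270 on chromosome 18. Divided by the hg18 length from the first to the last SOX9 peak, this gave 4.02, 3.58 and 3.57 genes per Mb, the 3 lowest values among the 22 autosomes. The other 19 autosomes together had 7.37 genes per Mb. The label therefore held on these counts. Genes at single peaks and the sequence under the peaks were not analysed here.

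SOX9 peaks were sparse on all 3 chromosomes. The lowest density was that of chromosome 18, 1.48 peaks per Mb, with an exact Poisson 95% interval of 1.22 to 1.78. Chromosome 4 had nearly the same density, 1.502 (1.33 to 1.69). Chromosome 13 was slightly denser at 1.69 (1.44 to 1.98). These were the 3 lowest densities of the 22 autosomes. Differences among the 3 were within counting error: the ratio of chromosome 13 to 18 was 1.14 (0.893 to 1.47), and that of 4 to 13 was 0.887 (0.728 to 1.08). Chromosome 16 followed at 1.76 (1.49 to 2.06), an interval that overlapped all 3, and chromosome 6 at 1.90 (1.70 to 2.12). Pooled, the 3 chromosomes had 1.55 peaks per Mb (1.42 to 1.68) against 2.85 (2.79 to 2.92) on the other 19 autosomes, a ratio of 0.542 (0.496 to 0.591). Without chromosomes 11, 17 and 19, which are rich in peaks, the ratio was 0.628 (0.574 to 0.685). All intervals cover counting error only and treat peaks as independent, and with 1 SOX9 library no difference could be tested against replicate error.

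Counted per gene, the picture was different. The 3 chromosomes made up 13.04% of the autosomal length between first and last peaks, 7.20% of the autosomal protein-coding genes and 7.52% of the autosomal SOX9 peaks. They carried 40.6 peaks per 100 protein-coding genes (37.3 to 44.1), against 38.8 (37.8 to 39.7) on the other 19 autosomes. The ratio was 1.05 (0.959 to 1.14), an interval that includes 1. Chromosome 13 ranked 5 of 22 from the top with 47.3 peaks per 100 genes (40.3 to 55.3). The values were 41.5 (34.2 to 49.9) for chromosome 18 and 37.3 (33.1 to 41.9) for chromosome 4. Chromosome 16, the next in peaks per Mb, carried only 18.1 peaks per 100 genes. The direction of the pooled ratio was not stable, since it was 0.991 without chromosome 13 and 1.15 (1.02 to 1.30) without chromosome 4.

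**Figure D1:**
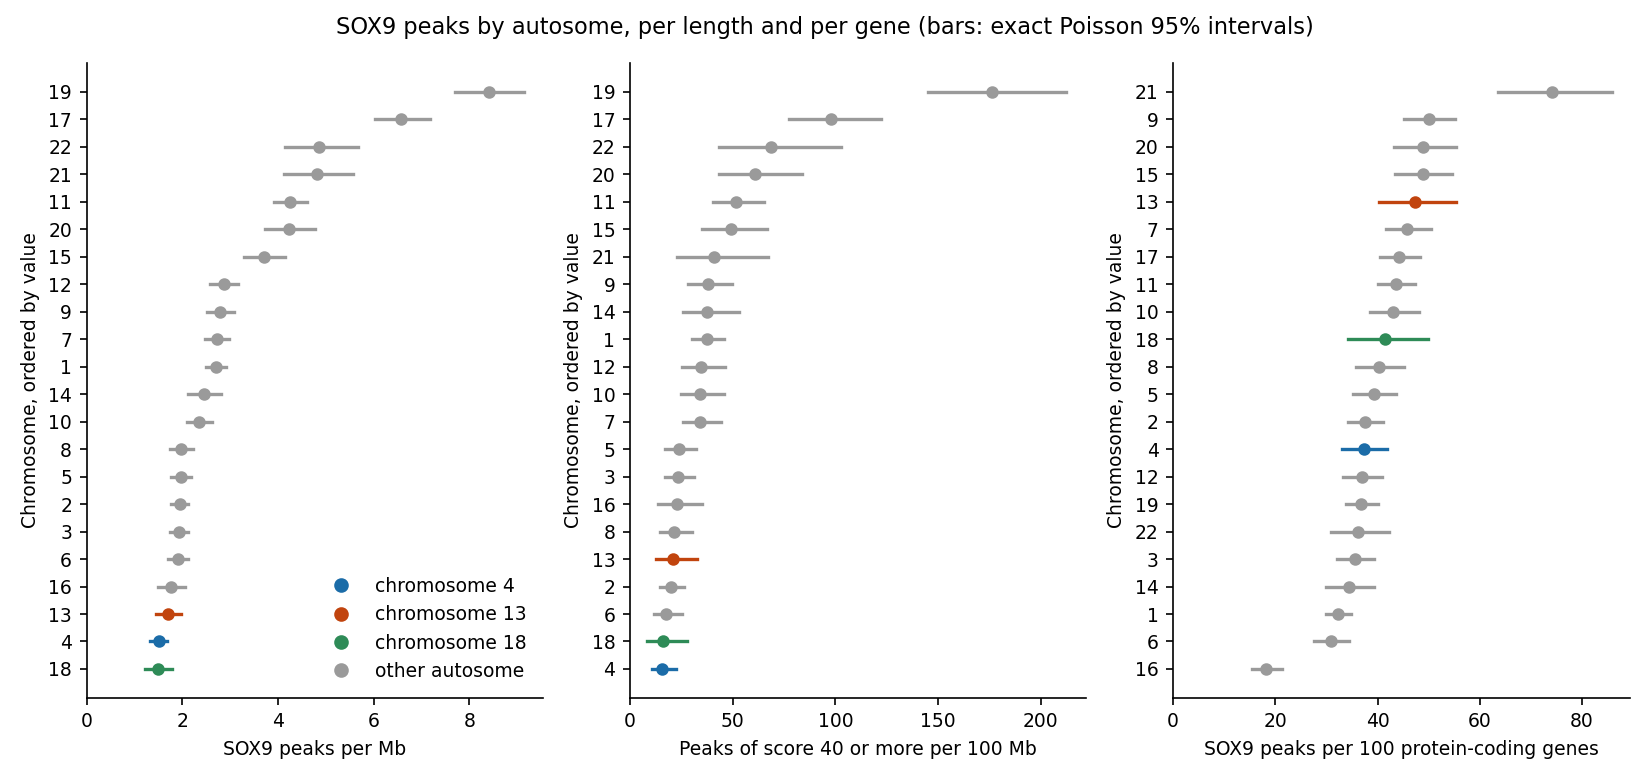
SOX9 peaks per Mb, peaks of score 40 or more per 100 Mb, and SOX9 peaks per 100 protein-coding genes on the x axes, for each of the 22 autosomes ordered by value on the y axes; dots are values and bars exact Poisson 95% intervals. Chromosomes 4 (blue), 13 (orange) and 18 (green) are the 3 lowest per Mb, at 1.502, 1.69 and 1.48, but are spread through the order per gene.

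Along the chromosomes the peaks were followed in windows of 5 Mb. Among the 69 whole windows between the first and last peaks of the 3 chromosomes, the median was 6 peaks (quartiles 3 and 8), and the other autosomes had a median of 9 (quartiles 5 and 15) over 457 windows. Windows with at most 5 peaks made up 34 of the 69 (49.3%, exact Clopper-Pearson 95% interval 37.0 to 61.6%), against 26.9% (22.9 to 31.2%) elsewhere. At this cut-off thin windows were more frequent on the 3 chromosomes, with intervals that did not overlap. None of their whole windows held 20 or more peaks (0 of 69, which allows a share of up to 5.21% by the same exact interval). Their fullest whole window held 19, so the cut-off of 20 lies just above it. On the other autosomes 82 of 457 whole windows held 20 or more (17.9%, 14.5 to 21.8%). Neither cut-off, 5 or 20, was among the planned measures, and neither was varied. When the end windows that the first or last peak cuts short were added, 2 of 75 windows (2.67%) on the 3 chromosomes and 100 of 495 (20.2%) elsewhere reached 20 peaks.

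Windows that held nothing were 6 of the 69 (8.70%, 3.26 to 17.97%), against 21 of 457 elsewhere (4.595%, 2.87 to 6.94%), and the intervals overlapped. Chromosome 13 had 3 of the 6, chromosome 4 had 2 and chromosome 18 had 1. At least 1 strong peak, meaning a score of 40 or more, lay in 36 of the 75 windows (48.0%, 36.3 to 59.8%). Elsewhere 322 of 495 windows had one (65.1%, 60.7 to 69.3%).

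The 2 windows with at least 20 peaks lay at opposite ends of their chromosomes. On chromosome 4 the first 5 Mb held 38 peaks (Poisson interval 26.9 to 52.2), 3 of them strong. The window from 5 to 10 Mb followed with 19 peaks, of which 4 were strong. Together they held 19.9% of the chromosome's peaks. On chromosome 13 the last window, from 110 Mb to the last peak at 113547345, held 35 peaks (24.4 to 48.7), of which 5 were strong. The next fullest on this chromosome was the window from 25 to 30 Mb with 19 peaks and 4 strong ones. Chromosome 18 was more even. Its fullest window, from 10 to 15 Mb, held 16 peaks with 1 strong peak, and the windows from 40 and from 55 Mb held 11 each. The variance of the whole-window counts divided by their mean was 2.47 on chromosome 18, the lowest of the 22 autosomes. It was 3.48 on chromosome 4 and 5.39 on chromosome 13, which ranked 8 from the lowest. The windows of 38 and 35 peaks are not whole and were left out of these values, which therefore miss the fullest windows of chromosomes 4 and 13. Chromosome 16, at 3.58, was close to chromosome 4.

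**Figure D2:**
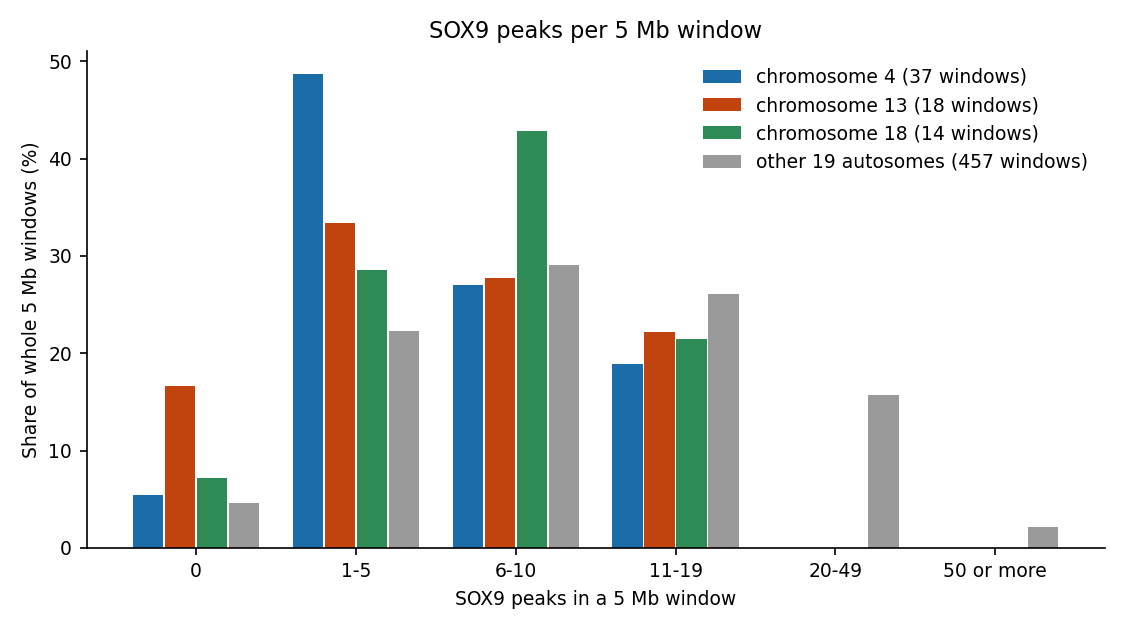
Share of whole 5 Mb windows (y axis, percent) by the number of SOX9 peaks they hold (x axis, in classes), for chromosomes 4, 13 and 18 and for the other 19 autosomes pooled. Windows of 20 or more peaks appear only for the other autosomes (82 of 457 windows, against 0 of 69), and 3 of the 18 windows of chromosome 13 are empty.

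The ends of the chromosomes held a large share of the peaks. Within 10 Mb of the first or the last peak lay 213 of the 559 peaks (38.1%, 34.1 to 42.3%), which corresponds to 3.55 peaks per Mb there and 1.15 in the interior. The outer stretches were 3.09 times as dense as the interior (2.59 to 3.68), compared with 2.06 times (1.96 to 2.18) on the other autosomes. Without chromosome 13 the ratio was 2.44 (1.95 to 3.03), an interval that overlapped that of the other autosomes. With outer stretches of 5 Mb the ratios were 3.28 (2.67 to 4.003) and 2.76 (2.60 to 2.94), and these intervals overlapped as well. Chromosome 13 had 93 outer and 67 interior peaks and the highest ratio of the 22 autosomes, 5.17 (3.74 to 7.19). Because its short arm carries no peaks, its first 10 Mb start at 19073972, in the long arm, and held 42 peaks. Chromosome 4 had a ratio of 3.42 (2.62 to 4.44), with 57 peaks in the first 10 Mb and 25 in the last. On chromosome 18 the ratio was 1.43 (0.939 to 2.14), an interval that includes 1. Against the other autosomes, the interior of the 3 chromosomes had 0.470 times as many peaks per Mb (0.420 to 0.524) and their outer stretches 0.703 times as many (0.608 to 0.811). Strong peaks, which score 40 or more, made up 29 of the 213 outer peaks (13.6%, 9.31 to 18.96%), against 14.02% of the outer peaks elsewhere.

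Long stretches without any SOX9 peak took up a large share of chromosomes 4 and 13. Gaps of at least 3 Mb between neighbouring peaks numbered 23 on the 3 chromosomes and summed to 122.0 Mb, which was 33.8% of the length between first and last peaks. On the other autosomes 103 such gaps covered 21.7%. Centromeres and unassembled sequence inside gaps were not removed in either group. Chromosome 4 (36.3%) and chromosome 13 (35.5%) had the highest shares of the 22 autosomes, while chromosome 18 (25.3%) was in the middle of the order. Of the 8 autosomal gaps of 10 Mb or more, 3 were on these chromosomes. Outside the long gaps the 3 chromosomes still had fewer peaks, with 2.34 per Mb (2.15 to 2.54) against 3.64 (3.56 to 3.73), a ratio of 0.641 (0.587 to 0.699).

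Among these 3, chromosome 13 held the longest gaps. The gap from 60887463 to 72199779 measured 11.3 Mb, and its flanking peaks scored 5.89 and 29.2. A second gap of 10.8 Mb ran from 79815154 to 90625257, between peaks scoring 4.32 and 10.95. The next, of 7.71 Mb, ran from 51927784 to 59635949. From the start of that gap to the end of the second, over 38.7 Mb, the list had only 13 peaks, with scores between 4.32 and 38.1 and a median of 9.48. Of the 13 peaks, 11 stood together between 72199780 and 79815153, at 1.44 per Mb (0.721 to 2.58), a density whose interval includes that of the whole chromosome. The long stretches without peaks were thus the 3 gaps themselves, and none of the 13 peaks was strong.

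On chromosome 4 the long gaps were many and of moderate length. Of its 16 gaps of 3 Mb or more, only the longest exceeded 10 Mb, at 10.2 Mb from 129952870 to 140156211 between weak peaks scoring 5.89 and 4.74. The next were 5.59 Mb long (30330962 to 35922243) and 4.77 Mb long (8323400 to 13094956). The last of these begins beside a strong peak of score 96.8 and follows the dense start of the chromosome. Chromosome 18 had 3 long gaps, of 8.38 Mb (32132065 to 40513872), 6.19 Mb (46978411 to 53172031) and 4.54 Mb (61569832 to 66106991). A strong peak stood at the left edge of the second, with a score of 56.3, and of the third, with a score of 72.1. Over the 3 chromosomes, 8 of the 23 long gaps had a strong peak as a neighbour. No such count is given for the other autosomes, so whether this was more frequent than elsewhere was not tested.

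**Figure D3:**
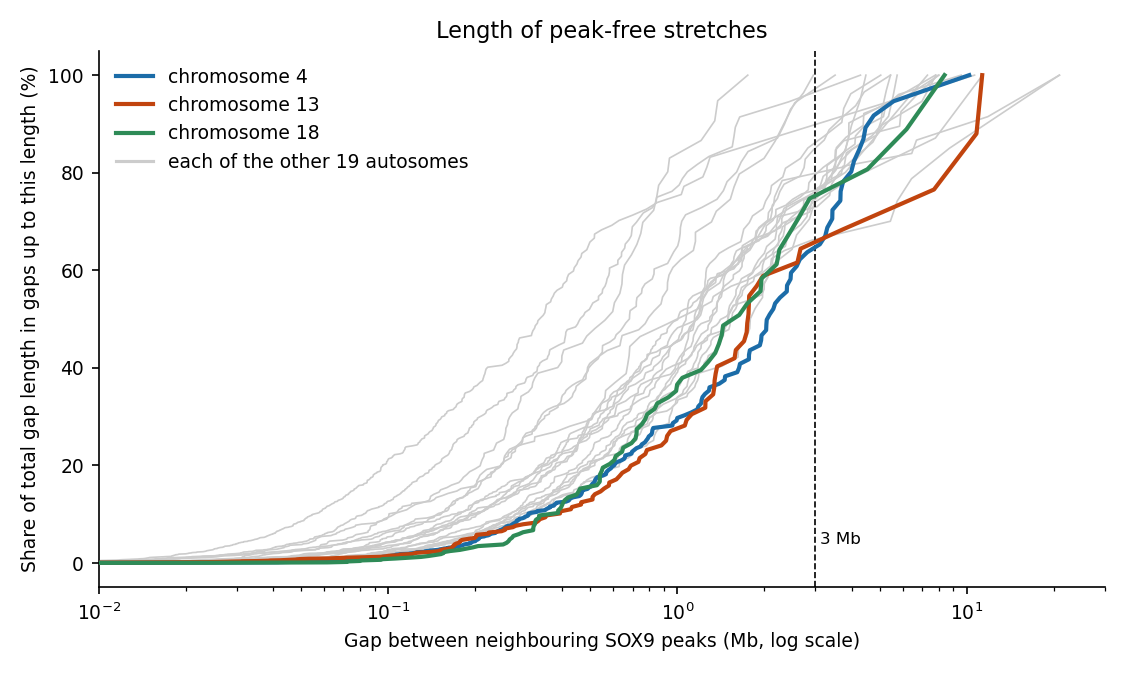
Cumulative share of the total gap length of a chromosome (y axis, percent) in gaps up to a given length (x axis, Mb, log scale), for chromosomes 4, 13 and 18 in colour and for each other autosome in grey; the dashed line marks 3 Mb. The curves of chromosomes 4 and 13 are low at 3 Mb, since 36.3% and 35.5% of their lengths lie in longer gaps, and the last steps of chromosome 13 are its gaps of 7.71, 10.8 and 11.3 Mb.

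Low density did not mean even spacing. The median gap between neighbouring peaks was 227 kb on the 3 chromosomes (distribution-free 95% interval 195 to 270.0 kb) and 102 kb (95.8 to 108 kb) on the other autosomes. It was widest on chromosome 18 at 322 kb (257 to 449 kb), the highest of the 22 autosomes. Chromosome 4 had 239 kb, which ranked 2 from the highest, and chromosome 13 had 166 kb, which ranked 8. A peak whose nearest neighbour was under 1 kb away was nevertheless as frequent here as elsewhere, at 24.0% (20.5 to 27.7%) and 23.6% (22.6 to 24.6%). The difference lay at intermediate distances. Peaks with their nearest neighbour 10 to 100 kb away made up 18.8% (15.6 to 22.3%) on the 3 chromosomes and 34.3% (33.2 to 35.5%) elsewhere. Those with a neighbour 100 kb to 1 Mb away made up 44.2% (40.02 to 48.4%) and 29.1% (28.0 to 30.2%).

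At the far end of this scale, 28 of the 559 peaks (5.01%, 3.35 to 7.16%) had their nearest neighbour 1 Mb or more away, compared with 2.02% (1.70 to 2.38%) on the other autosomes and 2.25% over all autosomes. Chromosome 4 held 15 of the 28 (5.23% of its peaks), with a median score of 5.04 and no strong peak. Chromosome 13 held 10 (6.25% of its peaks). Chromosome 18 held only 3 (2.68%, 0.556 to 7.63%) and ranked 9 from the highest of the 22 autosomes, below chromosomes 6 (4.33%) and 3 (4.22%) among others. Strong peaks were 2 of the 28, which is too few to compare with the 11.1% among all 559. One, at chr13:105985221-105986485, was 1265 bp wide and scored 215, with 3.73 Mb free of peaks before it and 1.33 Mb after it. The other, at chr18:61568693-61569831, was 1139 bp wide and scored 72.1, with 2.43 Mb free before it and 4.54 Mb after it. It was the only strong peak among 8 peaks with at least 2 Mb free on both sides, of which the other 7 lay on chromosome 4 and scored between 3.68 and 19.7.

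A run of at least 3 peaks in which no gap exceeded 12500 bp was counted as a cluster. There were 17 on the 3 chromosomes, holding 61 peaks (10.9%, 8.45 to 13.8%), against 13.9% (13.1 to 14.7%) of peaks on the other autosomes and 13.7% over all autosomes. Chromosome 13 had 18.75% of its peaks in clusters (13.02 to 25.7%) and chromosome 4 had 6.97% (4.31 to 10.6%). These were 8 and 6 clusters. Peaks enter clusters at least 3 at a time, so the intervals of these shares are too narrow, and no difference is drawn from them. Chromosome 18 lay between them at 9.82% (5.01 to 16.9%). The lower share on the 3 chromosomes depended on the gap allowed. With gaps of at most 5 kb it was 10.4% (7.97 to 13.2%) against 8.91% (8.25 to 9.61%) elsewhere, which is the opposite direction with overlapping intervals. The largest cluster, with 6 peaks, spanned 16.5 kb of chromosome 13 from 111759651 to 111776188 and had no score above 22.4. Chromosome 4 had none larger than 4 peaks, and its clusters at 54787674 to 54794524 and at 109307545 to 109313656 reached scores of 47.0 and 42.98. The 2 largest clusters of chromosome 18, of 4 peaks each, lay at 30056812 to 30059063 and at 58340471 to 58342765 and did not exceed scores of 7.45 and 6.11.

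The scores on the 3 chromosomes were close to those elsewhere. Their median was 8.59 (7.505 to 9.62) with quartiles of 4.92 and 18.5, and the other autosomes had a median of 7.94 (7.94 to 8.30) with quartiles of 4.92 and 19.8. Chromosome 4 had a median of 7.94, chromosome 13 of 8.77 and chromosome 18 of 8.73, and their intervals overlapped. Scores repeated often, since 305 of the 559 peaks shared their score with another of them and 23 had the same score of 3.99.

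Strong peaks numbered 62 of 559 (11.1%, 8.61 to 13.99%), against 915 of 6878 on the other autosomes (13.3%, 12.51 to 14.1%) and 13.1% over all autosomes. The share of strong peaks did not differ beyond counting error. Chromosome 4 had 30 strong peaks (10.5%), chromosome 13 had 20 of its 160 peaks and chromosome 18 had 12 (10.7%). Per length they were rarer, with 17.2 strong peaks per 100 Mb (13.2 to 22.0) against 38.0 (35.6 to 40.5), a ratio of 0.452 (0.344 to 0.585). For peaks below a score of 40 the ratio was 0.556 (0.506 to 0.609), and the intervals of the 2 ratios overlapped. Close to the threshold, the lowest strong peaks scored 41.8 (867 bp wide) and 42.0 (1113 bp wide), and the highest below it both scored 39.5 (688 and 708 bp wide). All 4 were on chromosome 4.

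At the top of the score range the share of peaks on the 3 chromosomes did not differ from their share of all autosomal peaks beyond counting error. Among the 100 highest-scoring autosomal peaks, 5 lay on the 3 chromosomes, 4 of them on chromosome 13, 1 on chromosome 4 and 0 on chromosome 18. The share of 5% (1.64 to 11.3%) has an interval that includes their 7.52% of all autosomal peaks. Among the 500 highest there were 30 (6%, 4.08 to 8.45%, which again includes 7.52%), with 13 on chromosome 13, 12 on chromosome 4 and 5 on chromosome 18. The highest peak of chromosome 13, at chr13:110165632-110166422, scored 313 over 791 bp and ranked 17 among the autosomal peaks. It closed a run of 3.15 kb that opened with a strong peak of score 138 at chr13:110163273-110163816. Another strong peak, of score 178, followed at chr13:110277307-110277794. This stretch lies in the window with the most peaks of chromosome 13. Next by score were the isolated peak of score 215 described above and a peak at chr13:100124251-100125486, which scored 185 and was 691 kb from its nearest neighbour. High scores thus occurred both in a crowded stretch and in nearly empty ones.

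On chromosome 4 the highest peak, at chr4:48475956-48477447, scored 239 over 1492 bp and ranked 43. It had 2.39 Mb free of peaks on its left. The next, at chr4:186175113-186179033, scored 160 and was the widest peak of the 3 chromosomes with 3921 bp, and a strong peak of score 41.8 began 62 bp after it. Another, at chr4:52403623-52404226, scored 154 over 604 bp and followed a gap of 3.44 Mb. How much of that gap is centromere or unassembled sequence was not examined. Chromosome 18 had lower maxima. Its highest peak, at chr18:73090314-73092799, scored 111 and was also its widest with 2486 bp. The next were chr18:58414846-58415340 with a score of 88.1 and chr18:2836455-2838325 with a score of 87.3. Chromosome 18 had only this 1 peak at a score of 100 or more, while chromosome 4 had 8 and chromosome 13 had 7. Together such peaks made up 2.86% (1.64 to 4.61%) of the peaks on the 3 chromosomes. Elsewhere they made up 4.30% (3.84 to 4.81%), and the intervals overlapped.

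**Figure D4:**
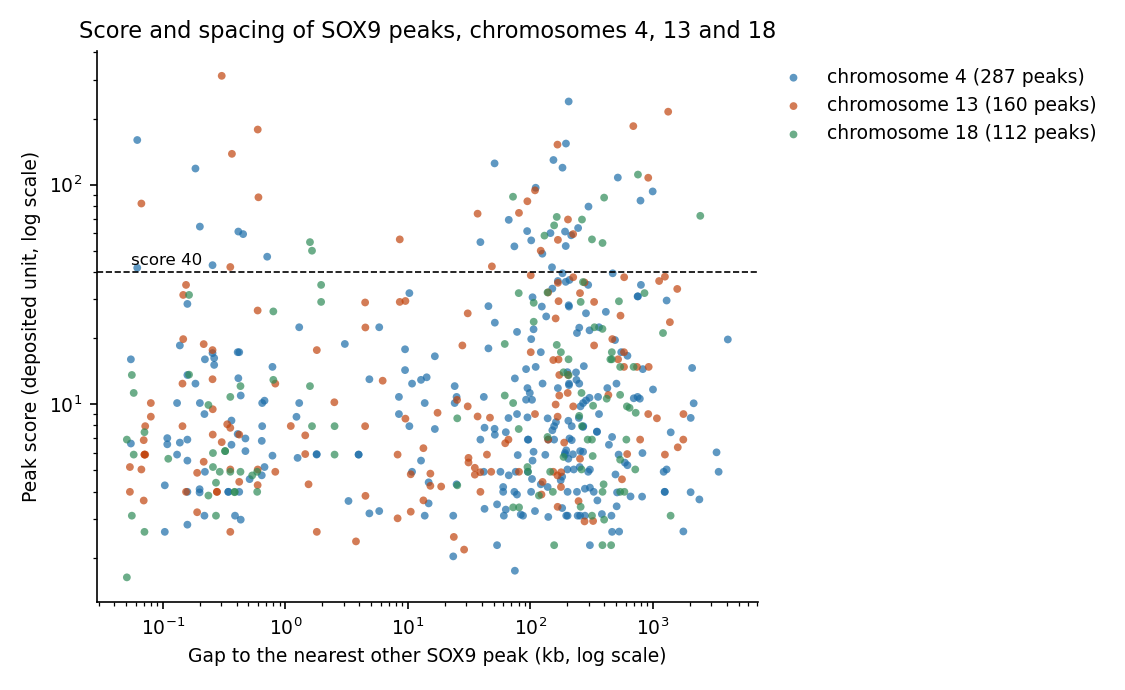
Score of each of the 559 peaks on chromosomes 4, 13 and 18 (y axis, deposited unit, log scale) against the gap to the nearest other SOX9 peak (x axis, kb, log scale); the dashed line marks a score of 40. Strong peaks occur from gaps of 0.062 kb up to 2430 kb (2.43 Mb). By gap, 134 peaks lie under 1 kb, 45 at 1 to 10 kb, 105 at 10 to 100 kb, 247 at 100 kb to 1 Mb and 28 at 1 Mb or more.

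Strong peaks left very long stretches uncovered. The median gap between neighbouring strong peaks was 2.60 Mb on the 3 chromosomes (1.41 to 5.10 Mb) and 0.972 Mb (0.854 to 1.09 Mb) on the other autosomes. It was 2.52 Mb on chromosome 4 (1.18 to 8.02 Mb) and 2.90 Mb on chromosome 18 (2.26 to 11.3 Mb). Chromosome 13 had only 0.691 Mb (0.151 to 5.27 Mb), an interval that includes the median of the other autosomes, so the wide pooled median did not hold for it. On chromosome 13 no peak reached a score of 40 between 45859915 and 94161183, over 48.3 Mb in which 27 weaker peaks lay. This was the longest such stretch on any autosome, ahead of 33.1 Mb on chromosome 9. It contains the 3 longest gaps of chromosome 13 described above, which sum to 29.8 Mb, so it largely restates them. Chromosome 4 had one of 30.9 Mb (109310020 to 140223440, 21 weaker peaks), which includes its gap of 10.2 Mb. The longest on chromosome 18 was 30.1 Mb (14122710 to 44188699, 33 weaker peaks), which includes its gap of 8.38 Mb. Stretches of similar length lay on chromosome 1 (31.0 Mb) and chromosome 6 (30.6 Mb), so those of chromosomes 4 and 18 did not stand out. At short range, 8 of the 62 strong peaks (12.9%, 5.74 to 23.9%) had another within 100 kb, against 20.3% (17.8 to 23.1%) elsewhere, and the intervals overlapped.

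Peak width was first compared over all peaks. The median width was 455 bp (409 to 492 bp) on the 3 chromosomes and 412 bp (404 to 418 bp) on the others, and these intervals overlapped. Peaks of 1000 bp or more made up 13.8% (77 of 559, 11.03 to 16.9%), compared with 10.5% (9.80 to 11.3%) on the other autosomes and 10.8% over all autosomes. These intervals overlapped only slightly, which does not show that the shares are equal. Chromosome 18 had the largest share of the 22 autosomes, 19.6% (12.7 to 28.2%), followed in these 3 by 16.25% on chromosome 13 and 10.1% on chromosome 4. Peaks of the smallest width in the list, 243 bp, were 6.26% (4.40 to 8.60%) against 8.01% (7.38 to 8.68%).

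Among strong peaks the intervals of the median width did not overlap until chromosomes 11, 17 and 19 were left out. The 62 strong peaks had a median width of 1118.5 bp (867 to 1254 bp), against 767 bp (717 to 824 bp) for the 915 elsewhere. Of the 62, 35 were at least 1000 bp wide (56.5%, 43.3 to 69.0%), compared with 38.4% (35.2 to 41.6%). The median was 1207 bp on chromosome 13, 1145 bp on chromosome 18 and 940 bp on chromosome 4, which ranked 2, 3 and 10 of the 22 autosomes. Chromosomes 15 (1259 bp) and 20 (1133 bp) had strong peaks of similar width. The narrowest medians were those of chromosomes 19 (576.5 bp), 22 (620 bp), 12 (622.5 bp), 16 (635 bp) and 17 (662 bp). Chromosome 11 had 814 bp. Without chromosomes 11, 17 and 19 the other autosomes had a median of 880 bp (785 to 946 bp), whose interval overlapped that of the 3 chromosomes.

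Moderate scores were compared in classes. Peaks scoring 20 to 40 had a median width of 843 bp (729 to 961 bp) on the 3 chromosomes and 674 bp (629 to 717 bp) elsewhere, and those scoring 10 to 20 had 633 bp (576 to 678 bp) and 534.5 bp (510.0 to 553 bp). Without chromosomes 11, 17 and 19 the others had 699 bp (655 to 752 bp) at 20 to 40, which overlapped, and 541.5 bp (519 to 564 bp) at 10 to 20, which did not. Chromosomes 4 and 13 alone had 615 bp (530.0 to 660.0 bp) at 10 to 20, an interval that overlapped that of the others. Below a score of 10 the widths were alike within their intervals, at 351 and 366 bp for scores of 5 to 10. From 40 to 100 the medians were 1109.5 bp (849 to 1246 bp) and 792 bp (705 to 883 bp), and at 100 or more they were 1250.5 bp (635 to 1523 bp) and 743 bp (674 to 839 bp), both with overlapping intervals. Across the 559 peaks Spearman's rho between score and width was 0.70, and it was 0.67 across the other 6878. Both describe peaks of 1 library, which are not independent.

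**Figure D5:**
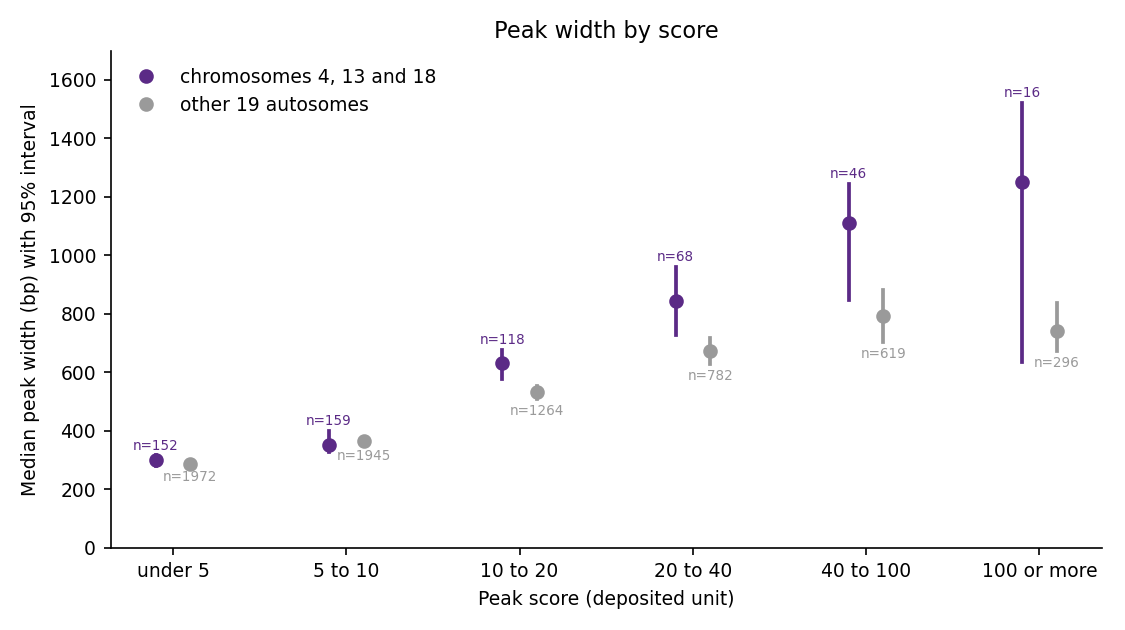
Median peak width (y axis, bp) by class of peak score (x axis, deposited unit) for chromosomes 4, 13 and 18 pooled (purple) and the other 19 autosomes (grey); bars are distribution-free 95% intervals and n is the number of peaks. The medians differ by little below a score of 10 and lie higher on the 3 chromosomes above it, for example 843 against 674 bp at scores of 20 to 40, with overlapping bars from 40 upward.

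Input chromatin gave 48 peaks on the 3 chromosomes, 34 on chromosome 4, 13 on chromosome 18 and 1 on chromosome 13. Per length this was 0.133 input peaks per Mb, against 0.120 on the other autosomes. Of the 48, 35 lay in groups of at least 3 joined over gaps of 12500 bp or less, 23 of them on chromosome 4 and 12 on chromosome 18. No such count is given for the other autosomes, so whether input peaks were more grouped here than elsewhere was not tested. Only 1 of the 559 SOX9 peaks overlapped an input peak (0.179%, 0.00453 to 0.993%), against 0.451% (0.306 to 0.639%) elsewhere and 0.430% over all autosomes. It was the peak at chr13:26931763-26932032, 270 bp wide with a score of 9.96.

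The largest input groups had no SOX9 peak in them. On chromosome 4 a group of 8 input peaks lay at 48788566 to 48817929, and its nearest SOX9 peak, of score 28.2, was 105 kb away. Further groups of 4, 3 and 3 input peaks lay at 49009919 to 49020039, 49207015 to 49211602 and 49347415 to 49354548. On the same chromosome a group of 5 was found at 67946843 to 67949322, 300.04 kb from a SOX9 peak of score 4.40. Chromosome 18 had 9 input peaks within 9.33 kb at 16765050 to 16774376, 301 kb from the nearest SOX9 peak, and 3 input peaks at 98036 to 99590, 390.2 kb before its first SOX9 peak. Of the 23 SOX9 gaps of 3 Mb or more, 4 contained input peaks, 18 in all, and 12 of these lay in the chromosome 4 gap from 48967767 to 52403622. The remaining 19 long gaps contained no peak of either list.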

How the data were processed

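Per the labels' protocols, VCaP chromatin was crosslinked, sonicated and precipitated with a SOX9 antibody, and libraries were amplified by PCR. The submitters' processing notes name hg18 and CASAVA 1.8.2. Which aligner and which peak caller produced the lists, at what threshold and with or without input, is not stated there. The authors deposited 1 peak list per library, with a score per peak of unstated scale, and the read depth is unknown.

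Starts were made 1-based. Lengths ran from the first to the last SOX9 peak of each chromosome and were not corrected for copy number, which was not measured. Centromeres and unassembled sequence inside gaps were not removed. Whole windows lay between those peaks, with peaks assigned by their centres. Overlap meant at least 1 bp. Peaks singled out were, per chromosome, the 3 highest-scoring, the widest, the 3 longest gaps, the 2 fullest windows, the largest clusters and the input groups. Counts per gene, isolated peaks, chromosome ends, spacing of strong peaks and width by score were added after values had been seen. Members and definitions were chosen with earlier results of these data known.

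Rates have exact Poisson intervals, rate ratios exact conditional intervals, shares exact Clopper-Pearson intervals and medians binomial order-statistic intervals, all at 95%. Overlap of 2 such intervals does not show that 2 values are equal. Protein-coding genes were counted per chromosome in the RefSeq table for GRCh38.p14, whose coordinates were not used. Reads amplified by PCR without molecular identifiers are not independent molecules. The counting was tested on simulated data. Computation used Python 3.11.15 with scipy 1.17.1, numpy 2.4.6, pandas 2.3.3 and, for plots, matplotlib 3.10.9. No genome of the build was used here, so no sequence is given.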

Additional observations from a re-analysis of the deposited data

How the results depend on the processing

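Under the alternatives 88 values were recomputed, and 50 of them moved by less than counting error allows, or by less than 1.5 times for the gap shares. The ratio of peaks per Mb was 0.452 at scores of 40 or more, 0.628 without chromosomes 11, 17 and 19, and 0.641 outside gaps of 3 Mb or more. The ratio per gene fell below 1 at scores of 40 or more (0.873) and without chromosome 13 (0.991), and was 1.15 without chromosome 4. The cause was not tested. Strong shares on the 3 chromosomes and elsewhere were 16.5% and 17.04% at a threshold of 30, and 7.16% and 8.45% at 60. Elsewhere the share was also 14.7% with peaks within 500 bp merged, 12.49% without chromosomes 11, 17 and 19, and 14.5% without peaks of the smallest width. Merging gave medians of 9.02 for score and 447 bp for width elsewhere, and of 513 bp for width on the 3 chromosomes. Without the smallest peaks the width elsewhere was 434 bp. Strong peaks elsewhere had a median width of 830.0 bp after merging and 880.0 bp without chromosomes 11, 17 and 19. Chromosomes 13 and 18 alone had a median width of 745.5 bp at scores of 10 to 20. Windows of 2 Mb were empty in 23.7% of cases on the 3 chromosomes and 15.3% elsewhere, and windows of 10 Mb in 6.06% (0.743 to 20.2%) and 0.930% (0.113 to 3.32%). Gaps of at least 5 Mb covered 16.7% and 11.5% of the lengths, and gaps of at least 2 Mb covered 47.7% and 32.6%. Clusters held 10.4% of peaks on the 3 chromosomes and 8.91% elsewhere with gaps up to 5 kb, which turned the direction, and 13.1% and 20.6% with gaps up to 25 kb. Elsewhere they held 11.6% without chromosomes 11, 17 and 19. Isolated peaks were 13.95% and 6.16% at 0.5 Mb, and 1.61% and 0.291% at 2 Mb. The ratio of outer to interior density was 2.49 on the 3 chromosomes and 1.85 elsewhere with outer stretches of 15 Mb, and 3.28 and 2.76 with 5 Mb, where the intervals overlapped. On the 3 chromosomes it was 2.44 without chromosome 13 and 3.95 without chromosome 18. No library could be left out. No paired analysis was possible because each group has 1 sample. The number of reads is unknown, so no limit of detection can be given.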
